A study of Mus musculus with 6 samples.

Results

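The tumor necrosis factor (TNF) ligand and receptor superfamilies were taken as every protein-coding gene whose GENCODE M21 symbol begins with Tnfsf or Tnfrsf, together with Tnf, Lta, Ltb, Ltbr, Fas, Fasl, Cd40, Cd40lg, Cd27, Cd70, Eda, Edar, Eda2r, Ngfr and Relt. This rule used names only and found 47 of the 55450 genes in the count table, 19 ligands and 28 receptors. Kidney mRNA was sequenced from 3 mice of the day-0 group and 3 mice of the day-21 group of a model of hyperuricemia-related chronic kidney disease. All animals were wild-type male C57BL/6J mice, bought at 7 weeks of age and acclimated for 1 week. The day-21 group had received adenine at 0.16 g/kg and potassium oxonate at 2.4 g/kg by gavage every day, a purine load combined with a blocker of uric acid breakdown, and the day-0 group served as controls, labelled with 20% PEG. The study kept 6 mice in each group, of which 3 were sequenced. By the paper's methods each group was killed on its own day. Age and days of handling may therefore differ along with the treatment, and the design does not part them from it. Adenine can itself injure tubules, so the model does not part uric acid from the other effects of the gavage.

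TNF superfamily ligands are mostly made as membrane-bound trimers, and proteases can shed several of them as soluble cytokines. Their receptors carry cysteine-rich outer domains. Some receptors hold a death domain that can start caspase-dependent or necroptotic killing, while others recruit TRAF adaptors that turn on NF-κB and MAP kinases. In the injured kidney the family is best known for TNF itself, for TWEAK acting on its receptor Fn14 in tubular cells, and for the co-stimulatory pairs that T cells and antigen-presenting cells use.

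The 6 libraries held 10963849 to 14256556 counts on day 0 and 12662200 to 14333311 on day 21. A gene was called changed if it passed an adjusted p of 0.05 and a fold of 1.5 in edgeR's quasi-likelihood test over 16592 genes, and levels are given as raw counts or as normalized CPM, counts scaled to a common library size after TMM normalization. The kidney origin was plain in both groups, since all 5 proximal tubule markers were abundant, with a summed level of 9354 to 10317 CPM on day 0 and 1937 to 2229 CPM on day 21, and all 5 were called lower. Of 12696 genes, 23 to 39 lay more than 3-fold above both other mice of the group in the day-0 mice. In the day-21 mice 1 to 4 did. Genes more than 3-fold below both others numbered 20 to 52 on day 0 and 1 to 9 on day 21. Day-0 mouse 1 had the most in both directions, 39 above and 52 below. These were few of the 12696, so no library stood apart as a whole. The labels name no batch, and p-values measure the spread between these 6 samples.

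Compared with the day-0 group, 17 of the 47 TNF superfamily members were called higher on day 21, 6 ligands and 11 receptors, among 31 that had enough counts to be tested. Over all genes tested, 19.6% were called higher. Only Tnfrsf21 was called lower, against 15.5% of all genes, and 13 members were not called. The median log2 fold change of the 31 members was 1.07, beside 0.032 for all genes tested. The filter asked for a minimal count in at least 3 mice. Of the 31 tested members, 14 met it in all 3 day-0 mice, and of these 8 were called higher and 1 lower. The other 17 met it only with the help of day-21 mice, Tnf, Tnfsf8, Tnfrsf9 and Relt in no day-0 mouse at all. Among these 17 were 9 of the members called higher. The share and the median of the tested members thus rest in part on members that entered through day 21. They are no measure of the family as a whole. Without the filter, all 47 members could be fitted, with a median log2 fold change of 1.36, beside 0.0898 for all genes. Then 19 were called higher, against 13.4% of 26914 genes, and 1 lower, against 10.5%. By level alone, the 3 day-21 mice were above all 3 day-0 mice in 25 of the 47 members and below them in 1, while the same held for 22% and 17.8% of genes with any count. For single genes, 3 against 3 mice cannot go below p = 0.1 in a two-sided exact permutation test. In whole-kidney RNA, a change in the number of cells of a type and a change in RNA per cell cannot be told apart.

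**Figure D1:**
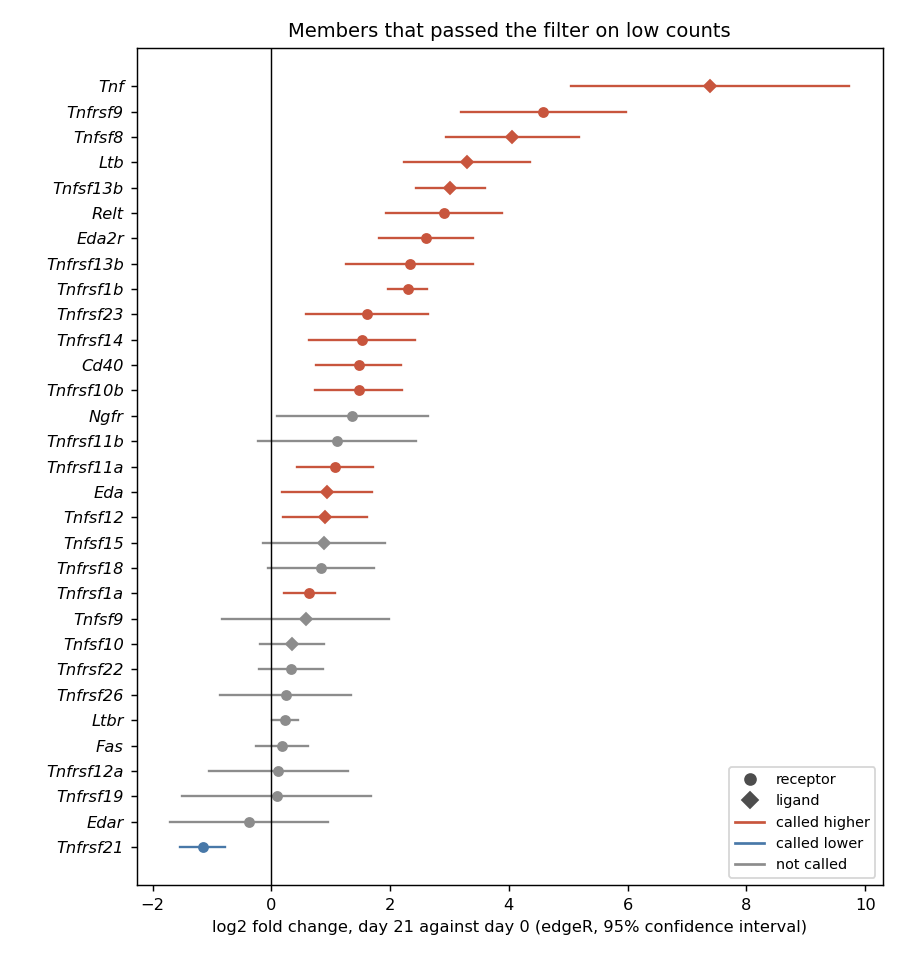
Log2 fold change of the 31 tested members, day 21 against day 0, with 95% confidence intervals from edgeR (x axis), ligands as diamonds and receptors as circles. Red marks the 17 called higher, blue the 1 called lower, Tnfrsf21, and grey the 13 not called; Tnf had no count on day 0, so its position at 7.38 depends on the small count the model adds.

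The classical ligands TNF and lymphotoxin beta moved from near absence to a low but plain level. Tnf (ENSMUSG00000024401.14), the founding inflammatory cytokine, had 0, 0 and 0 counts on day 0 and 27, 29 and 18 counts on day 21. Every day-21 mouse was therefore above every day-0 mouse, and against a floor of 3 counts over the day-0 group the rise was 16.6-fold (edgeR adjusted p = 0.00055). Ltb, the membrane anchor of the lymphotoxin heterotrimer that directs lymphoid tissue formation, had 1, 14 and 9 counts in controls and 90, 157 and 105 on day 21. The groups did not overlap, although day-0 mouse 1 was well below the other day-0 mice. Ltb rose by a log2 fold change of 3.29 (standard error, SE, 0.48, edgeR adjusted p = 0.00033). Lta, the secreted lymphotoxin alpha, stayed below the filter, with 1, 1 and 0 counts against 3, 17 and 4, a ratio of 8.08 with a 95% counting interval of 2.01 to 70.5. Its reads on day 21 came mostly from mouse 2, and Lta was not called without the filter (edgeR adjusted p = 0.073). Tnfsf14, the ligand LIGHT, also fell under the filter, with 5, 9 and 3 counts in controls and 33, 22 and 10 on day 21, and its groups overlapped once depth was allowed for.

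Ltb, Tnf and Lta sit side by side within 10.9 kb of chromosome 17 (GRCm38), Ltb on the plus strand at 35194439 to 35196320, Tnf on the minus strand at 35199381 to 35202007 and Lta on the minus strand at 35203165 to 35205351. All 3 were higher in every day-21 mouse than in any day-0 mouse. Stretches were printed only for members called higher that hold letters of a searched NF-κB or AP-1 motif outside annotated exons. The presence of letters was thus a condition of the choice, which the stretches before the Ltb and Tnf start sites met. Both were read from the RefSeq promoter table on GRCm38.p6, lie outside every annotated exon, and run 5′ to 3′ on the strand of the gene. Capitals mark letters that fit a binding motif of NF-κB, the transcription factor that TNF receptors switch on: GGANNTTCC or the NF-κB consensus, which overlap in Ltb, on either strand. The Ltb stretch covers chr17:35194339-35194438 (plus strand) and the Tnf stretch chr17:35202158-35202257 (minus strand).
Ltb: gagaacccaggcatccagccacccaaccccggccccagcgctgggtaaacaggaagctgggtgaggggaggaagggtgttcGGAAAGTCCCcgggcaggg
Tnf: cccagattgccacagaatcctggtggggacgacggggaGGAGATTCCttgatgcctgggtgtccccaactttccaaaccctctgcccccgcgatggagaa
The marked letters begin 87 bases before the RefSeq start of Ltb, where they read on the opposite strand, and 212 bases before that of Tnf.

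Such letters were not common in the family. Of the 47 members, 37 had a promoter in the table, and in the 250 bases before the start GGANTTTCC was found on either strand in 1 of them, or 2.70% (95% exact interval 0.0684 to 14.2%), beside 1.25% of 27025 genes. The wider GGANNTTCC, which takes in the former, was in 2 members, Ltb and Tnf, or 5.41%, beside 4.12% of all genes. The NF-κB consensus, searched after the data were seen, was in 4 members, or 10.8%, beside 8.23%. The 4 were Ltb, Tnfrsf9, Tnfrsf8 and Tnfrsf25, of which the last pair had too few counts to be tested. The AP-1 letters TGANTCA were in 6 members, or 16.2% (95% exact interval 6.19 to 32.0%), beside 7.82%: Fas, Tnfrsf8, Tnfrsf9, Tnfsf13, Tnfsf13b and Tnfsf14. With so few promoters, each interval takes in the share over all genes. A match describes letters only, not binding.

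**Figure D2:**
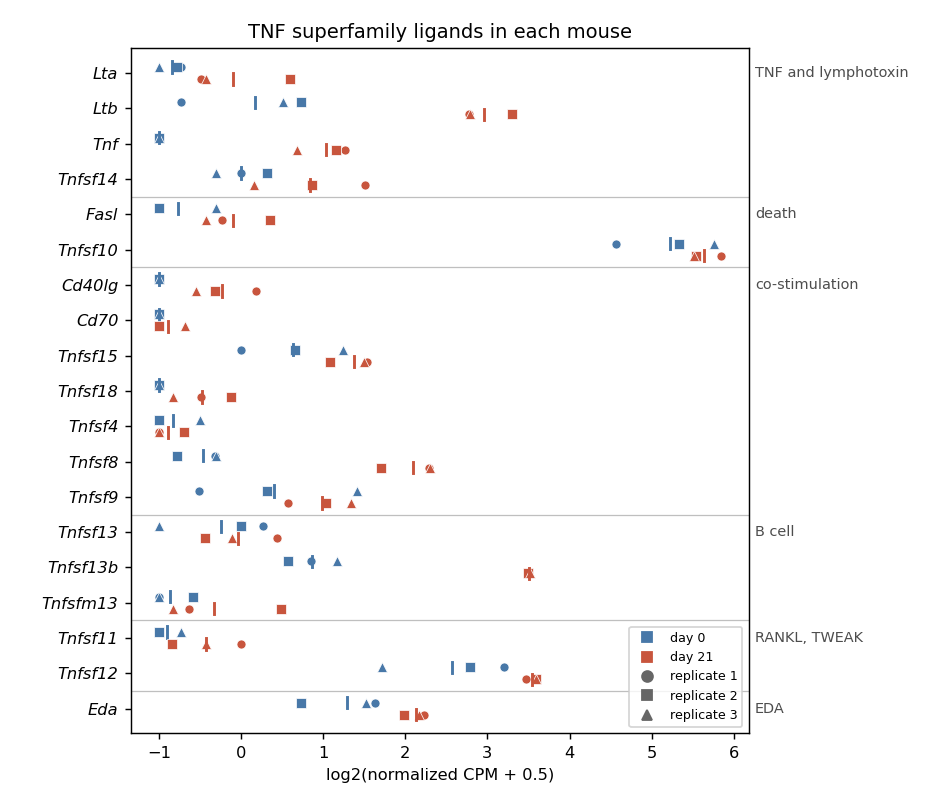
Level of each of the 19 ligands in each mouse as log2(normalized CPM + 0.5) on the x axis, blue for day 0 and red for day 21, with 1 symbol shape for each replicate number and a vertical tick at the group mean. The day-21 mice stood above all day-0 mice in 9 ligands, beside 22% of all genes with any count. The widest gaps were those of Ltb, Tnfsf13b, Tnfsf8 and Tnf.

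Tnfsf13b encodes BAFF, the survival factor of B cells. It had 13, 12 and 17 counts in controls and 152, 181 and 179 on day 21, or 1.35 ± 0.383 and 10.8 ± 0.114 CPM (mean ± SD, n = 3). The day-21 mice were nearly alike and far above the day-0 mice, with a log2 fold change of 3.02 (SE 0.26, edgeR adjusted p = 1.2e-05). Of its receptors, Tnfrsf13b (TACI) rose as well, from 2, 15 and 8 counts to 57, 51 and 77, a log2 fold change of 2.33 (SE 0.48, edgeR adjusted p = 0.0028). Its groups did not overlap, and the estimate was 1.88 without day-0 mouse 1 and 2.92 without day-0 mouse 2. The other BAFF receptors were barely seen: Tnfrsf13c, the main receptor of mature B cells, had 3 counts in each group in all, and Tnfrsf17, the receptor of plasma cells, had 2 or 3 counts in every mouse. B cell markers were near the floor too. Of 5, only Cd79b could be tested and it was not called, Pax5 had 0 counts in all day-0 mice, and their summed level was 0.928 to 2.97 CPM on day 0 and 2.20 to 4.06 CPM on day 21. Of 4 plasma cell markers, 2 of 3 tested, Sdc1 and Ighm, were called higher and Jchain lower, with a summed level of 46.8 to 127 CPM against 89.3 to 112 CPM. Sdc1 alone had a mean of 17.5 CPM on day 0 and 48.6 CPM on day 21. Mzb1 was not tested, with totals of 13 and 18 counts. The plasma cell markers thus gave no single direction. Macrophage markers, from cells that also make BAFF, moved with it: 4 of 5 were called higher and Mertk lower, and their summed level went from 165 to 177 CPM to 401 to 444 CPM. Their part in the rise of Tnfsf13b was not tested.

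Tnfsf13 (APRIL), the sister ligand of BAFF, had 7, 6 and 0 counts in controls and 12, 4 and 7 on day 21, with overlapping groups. It shares 60.0% of its exon bases with Tnfsfm13, an annotated read-through of Tnfsf12 into Tnfsf13 on chromosome 11, so reads could not be assigned to these genes with certainty. Tnfsfm13 itself had 0, 2 and 0 against 2, 15 and 1 counts, a ratio of 6.06 with a counting interval of 1.45 to 53.9 that rested on day-21 mouse 2.

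The co-stimulatory members pass signals between T cells and the cells that present antigen to them, and 3 of them were called higher. Of 7 ligands, 3 were tested and 1 was called. Of 6 receptors, 3 were tested and 2 were called, beside 19.6% of all genes called higher. Tnfsf8 and Tnfrsf9 met the filter in no day-0 mouse and so entered the test through day 21. Tnfsf8, the ligand of CD30, had 3, 1 and 3 counts in controls and 62, 46 and 72 on day 21, a log2 fold change of 4.06 (SE 0.50, edgeR adjusted p = 0.00011). Tnfrsf9, a receptor of activated T cells also called CD137, had 2, 0 and 1 counts against 39, 38 and 40. As its day-0 group held only 3 counts, the ratio of 26.3 carries a counting interval of 8.77 to 129 (edgeR adjusted p = 0.00021). Leaving out a single day-0 mouse moved its fitted log2 fold change of 4.58 to between 3.95 and 5.48. Cd40, the receptor by which B cells, macrophages and dendritic cells receive T cell help, had 29, 50 and 19 counts in controls and 123, 179 and 96 on day 21 (edgeR adjusted p = 0.0040). In all 3 genes the groups stood apart, and Cd40 was the most abundant of them at 8.42 ± 2.41 CPM on day 21 (mean ± SD, n = 3).

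Several further co-stimulatory members lay under the filter or were not called. Cd40lg, the T cell ligand of Cd40, had no count on day 0 and 9, 5 and 3 on day 21, or 3.82-fold higher against the floor. Alone among the members under the filter, it was called higher in the fit without the filter (edgeR adjusted p = 0.022). Cd27 and Tnfrsf4 (OX40), both receptors of T cells, had totals of 4 and 8 counts in controls and 31 and 39 on day 21. Their groups did not overlap, but neither was called without the filter (edgeR adjusted p = 0.070 and 0.11). Tnfsf18, the ligand of GITR, had no count on day 0 and 3, 7 and 1 on day 21, or 2.47-fold higher against the floor. Without the filter Tnfsf18 was not called (edgeR adjusted p = 0.079). Its receptor Tnfrsf18 had 13, 8 and 8 counts against 24, 30 and 24, a log2 fold change of 0.84 that was not called (edgeR adjusted p = 0.11), and 27.2% of its exon bases lie in an antisense gene, Gm16008, whose reads cannot be told apart without strand. Tnfsf9, the ligand of Tnfrsf9, varied widely on day 0 (2, 9 and 21 counts) and stood at 14, 26 and 33 on day 21. It was not called at a log2 fold change of 0.58, and 14.9% of its exon bases lie in an antisense gene, Gm11110. Tnfsf15, a ligand made by endothelial and myeloid cells, had 5, 13 and 18 against 34, 27 and 38 counts and was not called either (0.89, edgeR adjusted p = 0.14). Cd70, Tnfsf4 and Tnfrsf8 had 0 to 4 counts in each mouse and no fold is drawn from them.

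T cell markers moved with these genes. All 6 were called higher, and their summed level went from 4.01 to 10.7 CPM on day 0 to 28.6 to 33.1 CPM on day 21. The log2 fold changes of the 6 markers were 1.69 to 2.64, beside 1.47 for Cd40, 4.06 for Tnfsf8 and 4.58 for Tnfrsf9. Of 4 dendritic cell markers, Ccr7 alone was called higher, and their summed level was 12.7 to 15.7 CPM against 15.8 to 20.9 CPM. Of 4 natural killer cell markers, 1 was tested and it was not called, with a summed level of 0.907 to 2.11 CPM against 1.43 to 3.32 CPM. The part of these cells in the result was not tested.

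Of the 4 receptors of TNF and the lymphotoxins, Tnfrsf1a, Tnfrsf1b and Tnfrsf14 were called higher and Ltbr was not called. Tnfrsf1a, the widely expressed death-domain receptor of TNF, had 129, 87.1 and 69.4 CPM on day 0 and 149, 145 and 150 CPM on day 21. The groups did not overlap, day-0 mouse 1 came near the day-21 mice, and the log2 fold change was 0.64 (SE 0.19, edgeR adjusted p = 0.020). This call is weak: it was lost without day-0 mouse 2 or 3 and without day-21 mouse 1 or 3, with log2 fold changes of 0.44 to 0.63. Tnfrsf1b, the other TNF receptor, known from leukocytes and endothelium and without a death domain, went from 8.72, 6.92 and 6.90 CPM to 34.9, 38.0 and 37.7 CPM. Its 2.30 log2 rise (SE 0.15, edgeR adjusted p = 2.4e-06) had the narrowest 95% interval of the called members, 1.97 to 2.62. Per kilobase of exon, Tnfrsf1b reached 5.58 ± 1.09% of the level of Tnfrsf1a on day 0 and 16.9 ± 0.987% on day 21 (mean ± SD, n = 3, two-sided exact permutation test p = 0.1), a ratio taken after the values were seen.

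Ltbr, the receptor of lymphotoxin alpha-beta and LIGHT on stromal and epithelial cells, had 84.1, 88.5 and 81.6 CPM on day 0 and 102, 102 and 94.4 on day 21. Every day-21 mouse was higher, but by only 0.23 on the log2 scale (SE 0.10), which was not called (edgeR adjusted p = 0.085). The 95% interval of the log2 fold change was 2.22 to 4.36 for the ligand Ltb and 0.01 to 0.45 for this receptor. Tnfrsf14 (HVEM), the second receptor of LIGHT, rose from 5, 10 and 13 counts to 38, 42 and 41, a log2 fold change of 1.53 (SE 0.40, edgeR adjusted p = 0.011).

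**Figure D3:**
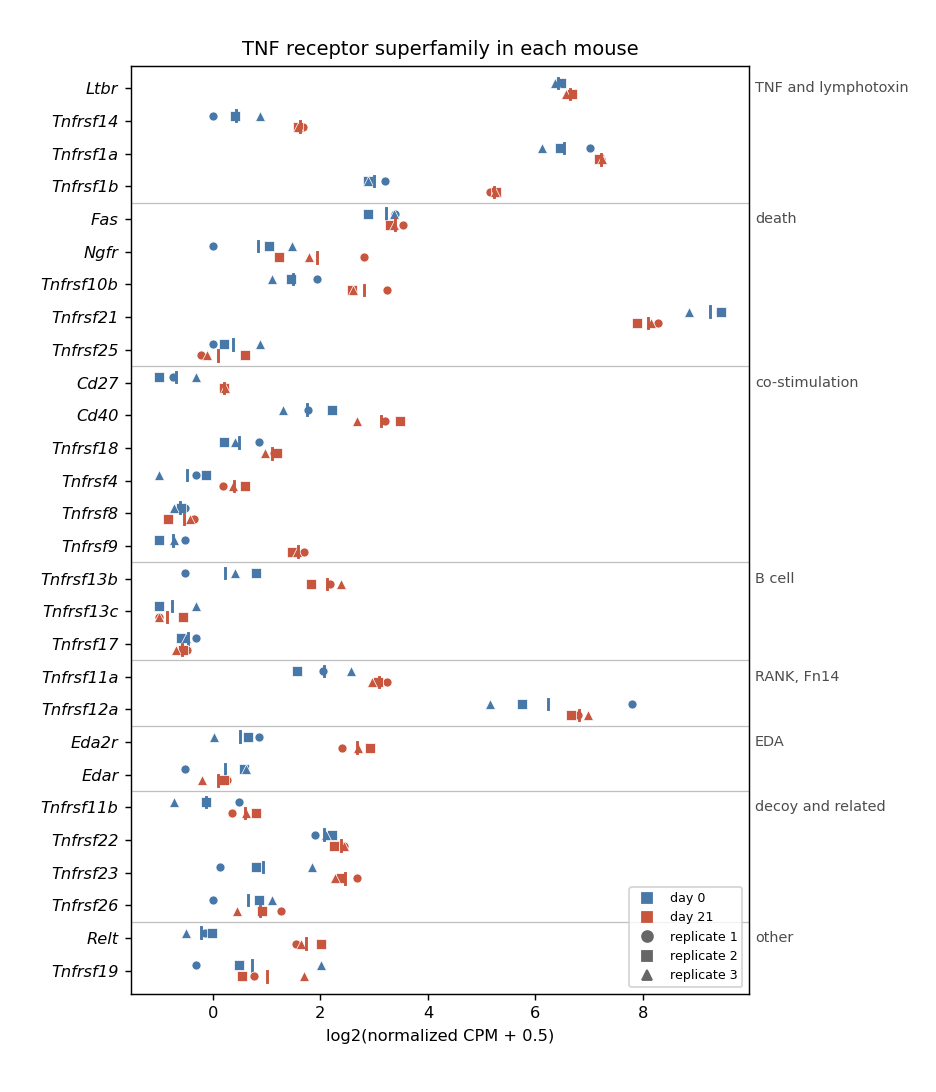
Level of each of the 28 receptors in each mouse as log2(normalized CPM + 0.5) on the x axis, blue for day 0 and red for day 21, with 1 symbol shape for each replicate number and a vertical tick at the group mean. Tnfrsf21 is the only receptor whose day-21 mice lie below all day-0 mice, while in 16 receptors they lie above. Of all genes with any count, 17.8% lie below and 22% above in this way.

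Tnfrsf21 (ENSMUSG00000023915.5; death receptor 6, known for regulating lymphocyte responses and axon pruning) was the exception of the family. It had 688, 696 and 462 CPM on day 0 and 309, 235 and 282 CPM on day 21. Day-0 mouse 3 was lower than its group but still above all day-21 mice, and the fall was 2.24-fold (log2 fold change −1.16, SE 0.17, edgeR adjusted p = 0.00038). The call held in each of the 14 alternative fits and left-out mice, between −1.35 and −0.77. The gene lies on chromosome 17 at 43016555 to 43089189 (GRCm38). Markers of several kidney cell types fell as well. Of the proximal tubule 5 of 5 were called lower, with a median log2 fold change of −1.89, of the loop and distal tubule 3 of 4 (median −1.08), of podocytes 3 of 4 (median −0.84) and of the collecting duct 2 of 4 (median −0.76). Their part in the fall of Tnfrsf21 was not tested.

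Of the other receptors grouped with the death receptors, Tnfrsf10b, Fas, Ngfr and Tnfrsf25, only Tnfrsf10b was called. Tnfrsf1a, also a death-domain receptor, was grouped above with the TNF receptors and was called higher. Tnfrsf10b, the mouse receptor of the death ligand TRAIL, rose from 33, 27 and 16 counts to 126, 92 and 91, a log2 fold change of 1.47 (SE 0.33, edgeR adjusted p = 0.0044). TRAIL itself, Tnfsf10, was the most abundant ligand and was not called, at 231, 484 and 519 counts against 804, 770 and 740 and a log2 fold change of 0.35 (edgeR adjusted p = 0.28). Day-0 mouse 3 reached the level of the day-21 mice, and without it Tnfsf10 was called, at 0.62 (edgeR adjusted p = 0.046), while without the low day-0 mouse 1 the estimate was 0.063 (edgeR adjusted p = 0.77). Fas, the receptor of Fas ligand, had 100, 84 and 95 counts against 156, 156 and 160, with a log2 fold change of 0.18 and a 95% interval of −0.27 to 0.62. Fasl had 0, 0 and 3 counts against 5, 13 and 4, a ratio of 4.94 with a counting interval of 1.48 to 25.8. Ngfr, the low-affinity neurotrophin receptor, had 5, 19 and 22 counts against 92, 31 and 48 and overlapping groups. It was not called at a log2 fold change of 1.36 (edgeR adjusted p = 0.074), and with a mouse left out the estimate was 0.73 to 1.78. It was called by DESeq2 (adjusted p = 0.043), without the filter on low counts, and without day-0 mouse 3 or day-21 mouse 2. Tnfrsf25, the receptor of Tnfsf15, had 5, 8 and 13 against 5, 17 and 7 counts and was not tested.

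**Figure D4:**
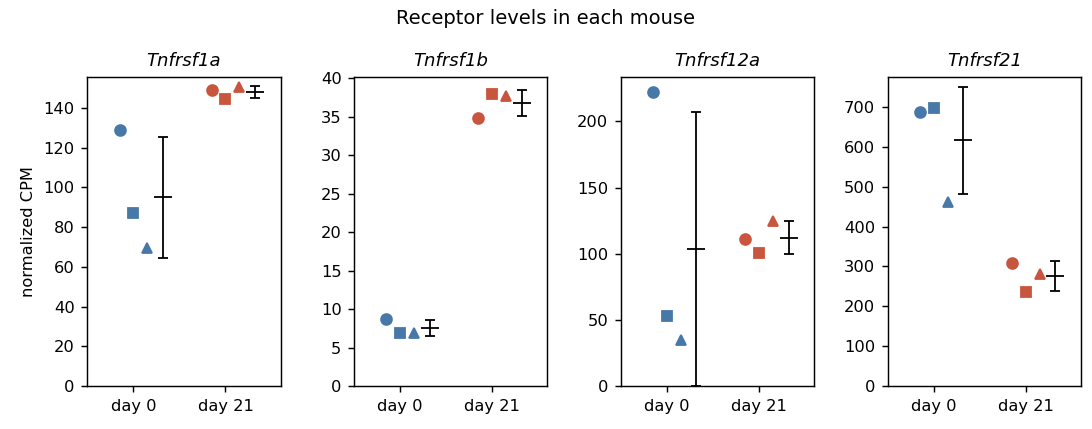
Normalized CPM (y axis, from 0) of Tnfrsf1a, Tnfrsf1b, Tnfrsf12a and Tnfrsf21 in each mouse on day 0 (blue) and day 21 (red), with mean and SD beside each group of 3. Tnfrsf1b is higher and Tnfrsf21 lower in every day-21 mouse, while for Tnfrsf12a day-0 mouse 1, at 222 CPM, lies above all 5 other mice.

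Tnfrsf12a encodes Fn14, the receptor of TWEAK that injured tubular cells are known to induce, and its result turned on a single control. It had 2216, 646 and 340 counts on day 0, or 222, 53.2 and 35.0 CPM, and 1569, 1686 and 2041 counts on day 21, or 112 ± 12.3 CPM (mean ± SD, n = 3). Day-0 mouse 1 was above all day-21 mice, and the other 2 day-0 mice were below them. With all mice the log2 fold change was 0.12 (95% interval −1.05 to 1.29, edgeR adjusted p = 0.87). Without day-0 mouse 1 it was 1.32 and called (edgeR adjusted p = 0.00024), and without day-0 mouse 2 or 3 it turned to −0.20 and −0.30. The same mouse was above the other day-0 mice in 3 genes of the stress response, which were looked up after these values were seen. Hmox1, heme oxygenase 1, had 7480, 702 and 424 counts on day 0. Srxn1, an antioxidant gene, had 3495, 1295 and 832 and Atf3, a stress-induced transcription factor, 98, 24 and 22. On day 21 the counts were 953, 607 and 836 for Hmox1, 1532, 1497 and 1733 for Srxn1, and 283, 400 and 352 for Atf3. The 3 genes were unlike on day 21: Hmox1 was called lower, Atf3 higher and Srxn1 not called. Their part in the level of Tnfrsf12a was not tested.

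Tnfsf12, the ligand TWEAK, had 87, 78 and 27 counts in controls and 149, 194 and 188 on day 21. The groups did not overlap, and day-0 mouse 3 was low. The log2 fold change of 0.90 (SE 0.32) passed the threshold narrowly (edgeR adjusted p = 0.041) and the call was lost when any mouse but day-0 mouse 1 was left out, with adjusted p from 0.050 to 0.098. Tnfsf12 shares 48.3% of its exon bases with the read-through gene Tnfsfm13. RANK, encoded by Tnfrsf11a, is the receptor of the osteoclast factor RANKL and is also made by macrophages and dendritic cells. It rose from 36, 30 and 53 counts to 126, 132 and 119, a log2 fold change of 1.07 (SE 0.29, edgeR adjusted p = 0.012), with groups that did not overlap. RANKL itself, Tnfsf11, was scarce, with 0, 0 and 1 counts against 7, 1 and 4, and its decoy receptor osteoprotegerin, Tnfrsf11b, had 9, 5 and 1 against 11, 21 and 17 and was not called (log2 fold change 1.11, edgeR adjusted p = 0.16).

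The ectodysplasin branch, best known from the development of hair, teeth and sweat glands, showed unlike values for its receptors. Eda2r, which binds the A2 isoform of ectodysplasin, rose from 13, 13 and 5 counts to 68, 118 and 98. All day-21 mice were above all day-0 mice, at a log2 fold change of 2.61 (95% interval 1.81 to 3.40, edgeR adjusted p = 0.00022). Edar, the receptor of the A1 isoform, had 2, 12 and 10 counts against 10, 11 and 6, overlapping groups and a log2 fold change of −0.38 (95% interval −1.70 to 0.95, edgeR adjusted p = 0.64), which turned to 0.013 when counts were scaled by library size alone. The ligand Eda had 26, 14 and 23 counts in controls and 59, 58 and 65 on day 21, and its log2 fold change of 0.93 (SE 0.34) was called by a narrow margin (edgeR adjusted p = 0.047). The call of Eda was lost when any mouse but day-0 mouse 1 was left out, with DESeq2 (adjusted p = 0.051) and with RLE scaling (edgeR adjusted p = 0.051). The gene counts do not part the A1 and A2 isoforms. Edaradd, the adaptor that links Edar to its signal, was called higher at 1.88 on the log2 scale (SE 0.36, edgeR adjusted p = 0.0018).

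Of the receptors on chromosome 7 that mice hold in a cluster of 78.2 kb, Tnfrsf23 was called higher. It had 6, 15 and 30 counts in controls and 84, 79 and 71 on day 21, a log2 fold change of 1.61 (SE 0.46, edgeR adjusted p = 0.016). The day-0 mice differed widely: the estimate was 1.22 without mouse 1 and 2.38 without mouse 3, and the call was lost without day-0 mouse 2 or day-21 mouse 1. Tnfrsf22, like Tnfrsf23 a decoy receptor for TRAIL, had 32, 50 and 37 counts against 70, 71 and 80, and its log2 fold change of 0.33 was not called (edgeR adjusted p = 0.29). The pair share part of their sequence. Of the 50-base words of their longest transcripts, 17.7% of those of Tnfrsf22 also occur in Tnfrsf23 and 21.8% the other way, so part of their reads could have been split between them. Tnfrsf26, their neighbor, had 5, 16 and 16 against 27, 23 and 14 counts and was not called (log2 fold change 0.24).

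Relt, a receptor of lymphoid tissues, rose from 4, 6 and 2 counts to 34, 59 and 43, a log2 fold change of 2.90 (SE 0.44, edgeR adjusted p = 0.00042), with no overlap. Tnfrsf19 (TROY), known from progenitor cells of several epithelia and the nervous system, had 3, 11 and 34 counts against 17, 16 and 45. In both groups mouse 3 was the highest, and the log2 fold change of 0.09 had a 95% interval of −1.50 to 1.67.

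Per kilobase of exon, which allows genes to be ranked within a kidney, a few receptors made up most of the family. Tnfrsf21 led on both days, with 150 CPM per kilobase on day 0 and 67.0 on day 21. It was followed on both days by Tnfrsf12a (53.6 and 58.1), Tnfrsf1a (36.7 and 57.1) and Ltbr (36.0 and 42.2). The ranges over mice overlapped between Tnfrsf21 and Tnfrsf12a on both days, among Tnfrsf12a, Tnfrsf1a and Ltbr on day 0, and among Tnfrsf21, Tnfrsf12a and Tnfrsf1a on day 21. Tnfsf10 was the leading ligand with 7.38 and 9.37 CPM per kilobase. Tnfrsf1b moved from rank 8 to rank 5 and Ltb from rank 15 to rank 8. Tnf, although called, reached only 0.964 CPM per kilobase on day 21, rank 23 of 47. Summed over the 28 receptors, the level per kilobase was 290 ± 87.3 on day 0 and 257 ± 14.0 on day 21 (mean ± SD, n = 3, two-sided exact permutation test p = 0.7). Tnfrsf21 made up 52.8 ± 8.31% of it on day 0 and 26.0 ± 2.19% on day 21. The summed level of the 19 ligands went from 14.2 ± 2.06 to 30.0 ± 1.67 CPM per kilobase, with no overlap (two-sided exact permutation test p = 0.1). These sums were chosen after the values were seen.

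Of 27 ligand and receptor pairs known to bind, listed for this purpose, both partners were called higher in 4. These were Tnf with Tnfrsf1a, Tnf with Tnfrsf1b, Tnfsf13b with Tnfrsf13b, and Eda with Eda2r. Each of these 4 holds Tnf, Tnfrsf13b or Eda2r, which met the filter in fewer than 3 day-0 mice and so entered the test through day 21. The calls of Eda and Tnfrsf1a were among the weakest. Over all genes tested, 19.6% were called higher, and no such share was computed for pairs. In 3 pairs the ligand was called and the receptor tested but not called, namely Ltb with Ltbr, Tnfsf12 with Tnfrsf12a, and Eda with Edar. In 2 pairs, Tnfsf10 with Tnfrsf10b and Tnfsf9 with Tnfrsf9, the receptor was called and the tested ligand was not. In 1 pair, Tnfsf10 with Tnfrsf11b, both were tested and neither was called, and in 17 pairs at least 1 partner had too few counts to be tested. The pairs share genes, so they are not independent of each other.

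Downstream of the receptors, 81 genes of the pathway were looked at, of which 77 could be tested. Of these, 34 were called higher and 7 lower, beside 19.6% and 15.5% of all genes, and their median log2 fold change was 0.47. The list, with the NF-κB targets below, was chosen with earlier results of these data known. Of the 34, 7 met the filter in fewer than 3 day-0 mice. The shares are therefore no independent measure of the pathway. Of the transcription factors and inhibitors of NF-κB, 8 of 11 were called higher and none lower, the largest being Nfkbid, a nuclear IκB protein, at 3.76 (SE 0.50, edgeR adjusted p = 0.00017). Of 16 adaptors, 6 were called higher and none lower, led by Traf1, which is itself induced by NF-κB (2.27, SE 0.30, edgeR adjusted p = 0.00017). Of 10 genes of ubiquitin editing, the 3 called were all higher: Tnfaip3, the brake A20, at 1.65, and its partners Tnip1 at 0.82 and Tnip2 at 0.80.

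Of 13 kinases and their partners, 1 was called higher and 2 lower, shares no larger than those over all genes. Ikbke, an inducible IKK-related kinase, was higher at 2.27, while Chuk, the IKK alpha subunit, was lower at −1.12 and Map3k5, the stress kinase ASK1, lower at −0.88. Of 7 death effectors, 3 were higher, led by the necroptosis executor Mlkl at 2.88 (23, 17 and 10 counts on day 0, 196, 170 and 179 on day 21, edgeR adjusted p = 3.6e-05), and 2 were lower, with Cflar, the inhibitor of caspase 8, at −0.80. Of 6 genes that control shedding, Rhbdf2, which carries the TNF sheddase ADAM17 to the surface, was higher at 1.10 and Adam10, another sheddase, at 0.61. Timp3, the inhibitor of ADAM17, was lower at −1.11 and Furin, which activates such proteases, at −0.64. Adam17 itself was 0.42 higher on the log2 scale, below the fold asked for.

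Of 18 known target genes of NF-κB, 14 were tested, and 11 were called higher and 1 lower, beside 19.6% and 15.5% of all genes. Of the 11, Ccl2, Ccl5, Ccl20, Cxcl1 and Cxcl2 met the filter in fewer than 3 day-0 mice and so entered the test through day 21, as did Edaradd and Nfkbid in the groups above. Ccl20, a chemokine, had no count on day 0 and 54, 46 and 31 on day 21, or 29.4-fold higher against the floor. Lcn2, the tubular injury marker lipocalin 2, rose by 6.27 on the log2 scale (SE 0.16). Sod2, the mitochondrial superoxide dismutase, was the member that fell, at −1.20 (SE 0.11, edgeR adjusted p = 2e-05). These targets answer to signals other than TNF receptors as well, and no value here parts them.

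**Figure D5:**
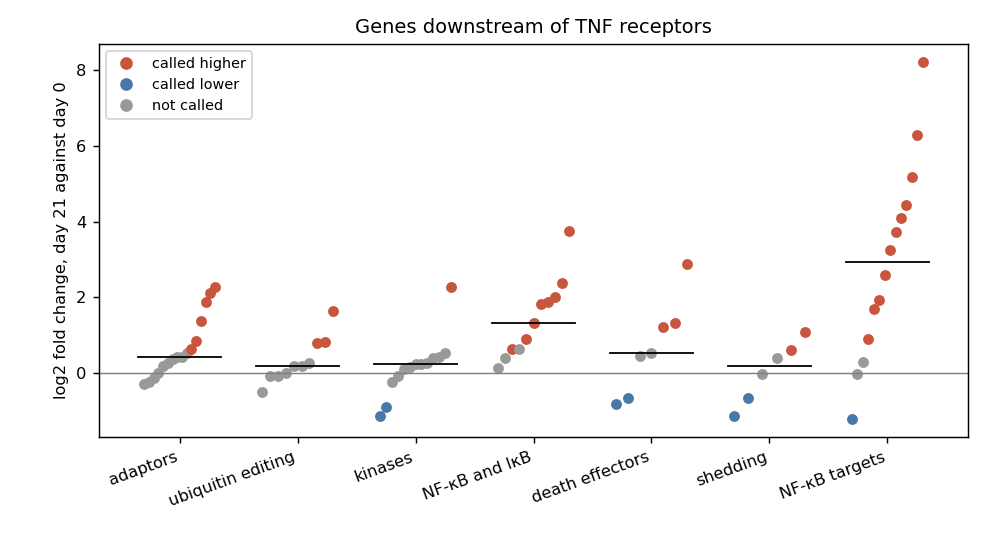
Log2 fold change, day 21 against day 0 (y axis), of the 77 tested pathway genes in 7 groups, each point a gene and each bar the group median. Red points were called higher (34), blue lower (7) and grey not called; the NF-κB targets have the highest median, 2.92, and the kinases lie around 0.24.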

How the data were processed

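Kidney mRNA of 6 mice was analysed, 3 of each group. The authors extracted total RNA, sequenced it as paired-end reads and deposited raw counts per gene for each mouse, with no normalization. The submitters' processing notes name TopHat and mm10, while the counting program and its strand setting are not given in the sources used here. All 55450 identifiers matched GENCODE mouse release 21 by ID and version, and 28536 genes had no count in any mouse. Groups came from the sample labels.

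Counts were tested in R 4.3.3 with edgeR 4.0.16 (filterByExpr with a minimum count of 10 and minimum total of 15, TMM scaling, quasi-likelihood test, Benjamini-Hochberg adjustment over 16592 genes). A call needed an adjusted p under 0.05 and a fold of over 1.5. The script was tested on simulated data. Alternatives used DESeq2 1.42.0, limma 3.58.1 (voom), other scaling, filters and thresholds, a replicate block, and each mouse left out. Levels per kilobase divided normalized CPM by the union of GENCODE exons. Single values were compared with a two-sided exact permutation test. A fold against a group with no count was set against a floor of 3 counts over the group, which leaves out the error of the day-21 counts. For 1 to 3 counts a 95% counting interval was given. Both cover counting error only. Promoter letters were searched in the RefSeq table, which holds 37 of the 47 members. An antisense gene, Tnfsf13os, was left out as not protein-coding.

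Every called member and every uncalled member with a mean of at least 50 counts was named, and of the pathway groups the largest rise and fall among called genes, or all called genes where there were 3 or fewer. The members, lists and pairs were chosen with earlier results of these data known. Within a group the libraries differed by far more than sampling noise (chi-square of 7.19 to 24.0 per gene), so none was a duplicate.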

Additional observations from a re-analysis of the deposited data

How the results depend on the processing

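The count of members called higher was 17, and it was 16 to 23 under the other scalings, tests and no filter, 9 when a mean of at least 50 counts was asked for, which left 15 members in the test, and 11 when an adjusted p of 0.01 and a fold of 2 had to be passed. With each mouse left out in turn it was 13 to 18. The count called lower was 1 in each of these settings. Over all genes, 5821 were called, 3172 at the stricter threshold and 5128 to 5920 with a mouse left out. Of the pathway genes, 34 were called higher (53 when scaled by library size alone, 33 to 35 with a mouse left out) and 7 lower (3 by library size alone, 3 at the stricter threshold, 6 to 8 with a mouse left out). Over all genes the median log2 fold change was 0.032, and it became 0.42 with scaling by library size alone and 0.12 with upper quartile scaling, so the counts under these settings carry that shift. The median of the members was 1.45 and 1.16 there.

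Among single members, 436 of 480 values kept their direction and their side of the threshold, 24 lost the call, 12 gained it and 8 turned sign, all 8 in members not called. Tnfrsf12a turned to −0.20 and −0.30 without day-0 mouse 2 or 3 and was 1.32 without day-0 mouse 1. Tnfrsf26 turned to −0.13 without day-0 mouse 1 and −0.05 without day-21 mouse 1, and reached 0.53 without day-0 mouse 3. Edar turned to 0.013 by library size alone. Tnfrsf19 turned to −0.41, −0.21 and −0.52 without day-0 mouse 1, day-0 mouse 2 and day-21 mouse 3, and was 1.36 without day-0 mouse 3. The cause was not tested. The weakest calls were Eda, kept in 6 of 13 alternatives, Tnfsf12, kept in 9 of 14, Tnfrsf1a, in 10 of 14, and Tnfrsf23, in 11 of 13.

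Mice of the groups share replicate numbers, but the deviations of same-numbered mice from their group means correlated at only −0.025, 0.173 and 0.098, and not every mouse correlated best with its own number, so the numbers were not taken to pair the mice. With the replicate number as a block, 17 members were called higher and 1 lower, 5758 genes over all, and 34 pathway genes higher and 7 lower.

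Depth limits 16 of the 47 members, which had too few counts for a test, and with 3 mice a group a missed threshold does not show that levels were alike.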
